A study of Mus musculus with 15 samples.

Results

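The genes followed here are 10 of the 51763 gene identifiers in the count table: the D-type cyclins Ccnd1, Ccnd2 and Ccnd3, the kinases Cdk4 and Cdk6, the kinase inhibitors Cdkn1a, Cdkn1b, Cdkn2c and Cdkn2d, and Myc. They were chosen by name for their role at the start of the cell division cycle, but with earlier results of these data known. All 10 passed the filter on low counts. RNA was sequenced from bone marrow-derived macrophages (BMDMs), which are macrophages grown from marrow cells, of wild-type (WT) female C57BL/6NTac mice aged 8 to 10 weeks. Cells of 5 mice were pooled before seeding, and 3 libraries were made for each of 5 conditions, so the replicates are technical and every error and p-value covers the spread between cultures and libraries, not between mice. The cells had matured with M-CSF, the colony-stimulating factor of macrophages, at 10 ng/mL for 10 days by the labels and 8 to 9 days by the methods of the study. All conditions then shared a medium with 1% fetal bovine serum (FBS), whose description names no M-CSF, and 24 h of stimulation. The control received PBS. The others received HMGB1, a nuclear protein that acts as a danger signal outside the cell, at 5 µg/mL in its fully reduced (frHMGB1) or its disulfide form (dsHMGB1), or bacterial lipopolysaccharide (LPS-EK) at 1 µg/mL, or LPS with interferon-γ at 20 ng/mL (LPS/IFNγ). By the labels both HMGB1 forms were made and kept free of the reducing agent DTT, whereas the methods of the study give buffers with DTT for frHMGB1 and without it for dsHMGB1. In LPS/IFNγ the LPS dose is given as 1 µg/mL by the treatment field and as 100 ng/mL by the protocol text and the methods, so an effect of IFNγ and one of the LPS dose cannot be told apart in that group.

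D-type cyclins bind and activate CDK4 and CDK6, and the active kinases phosphorylate the retinoblastoma protein, which frees E2F transcription factors and lets a cell pass from G1 into S phase. INK4 inhibitors, here Cdkn2c (p18) and Cdkn2d (p19), bind CDK4 and CDK6 themselves, whereas CIP/KIP inhibitors, here Cdkn1a (p21) and Cdkn1b (p27), bind assembled cyclin-kinase complexes. Myc, which binds DNA with its partner Max, drives growth and entry into the cycle. In macrophages M-CSF is the main mitogen and induces both D-type cyclins and Myc, and LPS is known to halt growth driven by M-CSF.

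The libraries held 40934540 to 80925478 counts. All 10 macrophage markers passed the filter in these cells, with a summed level of 14573 to 28208 CPM (counts scaled to library size) that was lowest in LPS/IFNγ. None of the 7 lymphocyte and 5 erythroid markers passed it, while 5 of 6 stromal, 2 of 8 neutrophil, 3 of 5 dendritic and 4 of 5 progenitor and mast cell markers did. Their summed levels were 118 to 282 CPM for the stromal list and at most 16.0 for the dendritic list, which was highest in LPS/IFNγ (15.1 to 16.0, against 1.82 to 2.86 in PBS). The dendritic list was at 1.15 to 1.59 CPM with frHMGB1, 4.88 to 5.89 with dsHMGB1 and 9.55 to 9.90 with LPS. The stromal list was at 220 to 223 in LPS/IFNγ, inside the PBS range. The progenitor and mast cell list was at 6.79 to 12.1 CPM in PBS, 7.89 to 8.61 with frHMGB1, 3.78 to 4.79 with dsHMGB1, 4.45 to 4.91 with LPS and 3.39 to 3.78 with LPS/IFNγ. Their part in the results below was not tested. PBS replicate 3 stood apart, correlating with PBS replicates 1 and 2 at 0.939 and 0.934 (Pearson, log2 CPM) where every other pair of replicates had 0.987 to 0.993. Its log2 ratio to them had a median of 0.74 in the 3257 protein-coding genes with the shortest exon length and of -0.83 in the 3256 with the longest. Among the genes followed here that ratio was -1.52 for Ccnd1, -1.51 for Ccnd2, -1.0 for Ccnd3, -0.87 for Cdk6 and 0.96 for Cdkn2d, and between -0.33 and 0.38 for the other 5. Fold changes against PBS are therefore also given without this library where it moves a call or a fold by more than 1.5 times. These are bulk samples, in which fewer cells of a kind and less RNA per cell cannot be told apart.

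**Figure D1:**
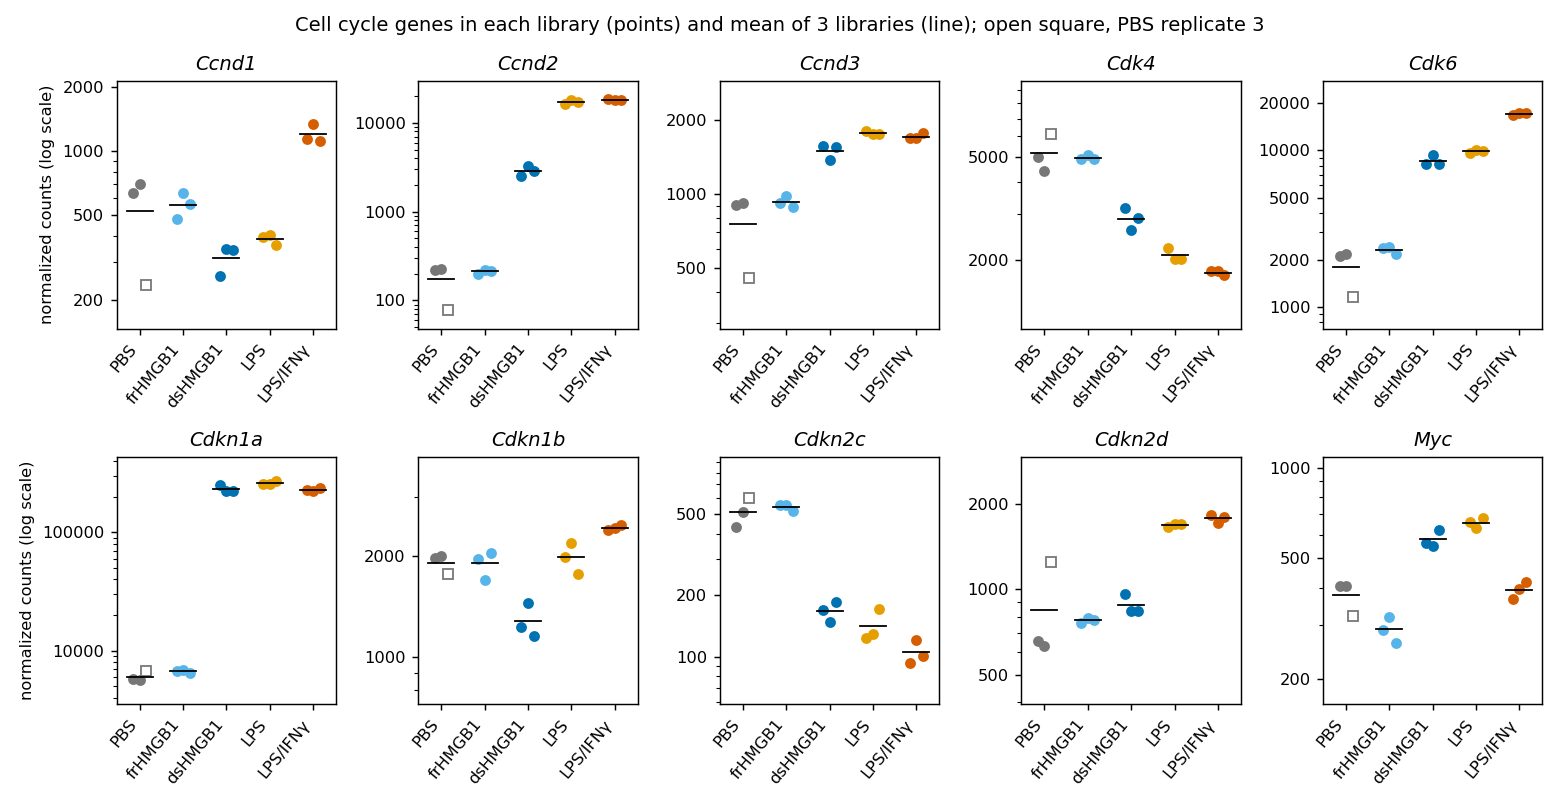
Normalized counts (log scale) of the 10 genes in each of the 15 libraries by condition, with the mean of 3 libraries as a line and PBS replicate 3 as an open square. Ccnd2, Ccnd3, Cdk6 and Cdkn1a lie higher and Cdk4 and Cdkn2c lower in every library of dsHMGB1, LPS and LPS/IFNγ than in every PBS library, while Ccnd1 is highest in LPS/IFNγ and Cdkn1b lowest in dsHMGB1.

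Which of these genes each stimulation moved was asked first against PBS, as log2 fold change ± standard error from DESeq2 with edgeR's Benjamini-Hochberg adjusted p, called under 0.05. With dsHMGB1, 8 of the 10 were called, 5 higher and 3 lower, where 47.4% of the 16919 genes tested were called, 23.3% higher and 24.2% lower. With LPS, 8 were called (6 higher, 2 lower), against a background of 62.9% (26.7% higher, 36.2% lower). With LPS/IFNγ, 9 were called (7 higher, 2 lower), against 60.3% (29.0% higher, 31.2% lower). Calls were thus common among all genes, and the account below rests on sizes and directions. The median log2 fold change of the 10 genes was 0.33, 0.89 and 1.13 in the 3 comparisons, against -0.10, -0.21 and -0.12 over all genes tested. With frHMGB1, 0 of the 10 were called by edgeR against a background of 7.0%. At an unadjusted p under 0.05 there were 2, and DESeq2's own test called 1, Myc, where it called 10.4% of all genes tested. The 4 comparisons share the PBS libraries.

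**Figure D2:**
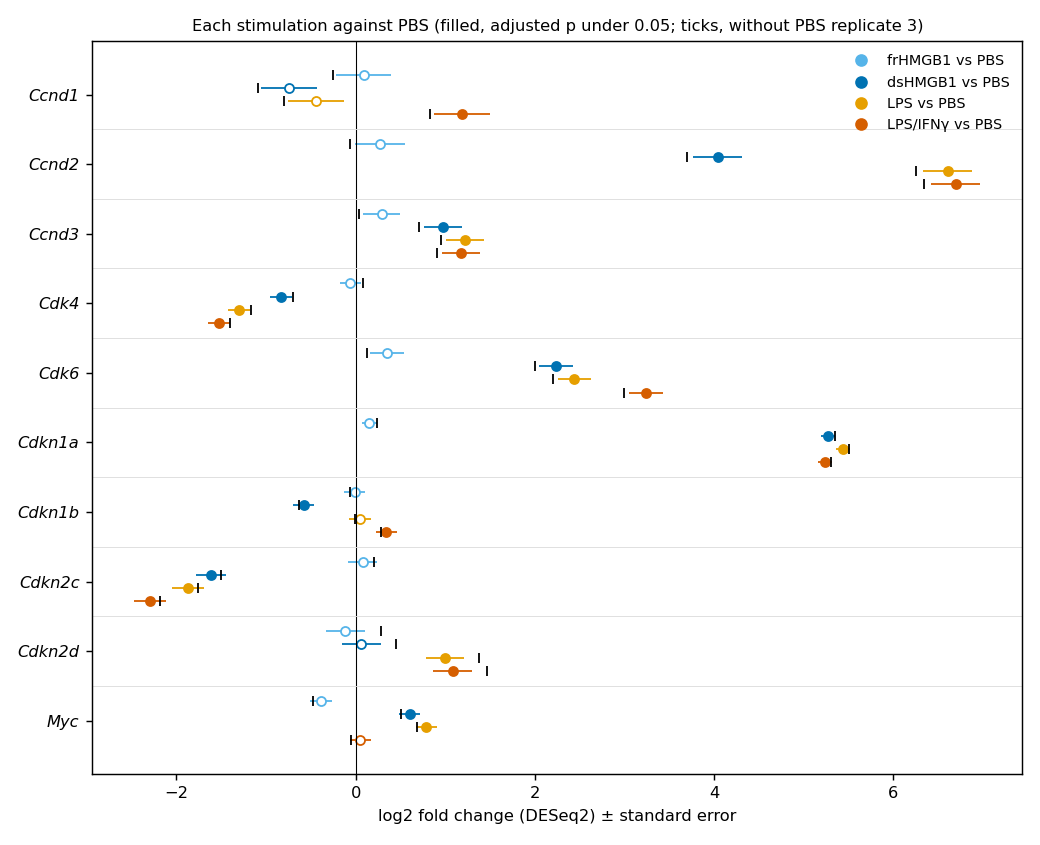
Log2 fold change against PBS (points) with its standard error (bars) for each stimulation, filled where the edgeR adjusted p was under 0.05, and a tick for the value without PBS replicate 3. Cdkn1a sits above 5 and Ccnd2 between 4.04 and 6.70 with dsHMGB1, LPS and LPS/IFNγ, the 4 called falls with LPS and LPS/IFNγ are those of Cdk4 and Cdkn2c, and no frHMGB1 point is filled.

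Of the D-type cyclins, Ccnd2 rose from the lowest level per exon length to the highest. Ccnd2 (ENSMUSG00000000184, chromosome 6, positions 127125162 to 127152193 of GRCm38, minus strand) had normalized counts of 220, 224 and 77.3 in PBS and 201, 219 and 217 in frHMGB1. It reached 2535, 3227 and 2902 in dsHMGB1, 16243, 17880 and 17239 in LPS, and 18464, 18073 and 18123 in LPS/IFNγ. The last 3 conditions did not overlap with PBS or frHMGB1, and dsHMGB1 lay between them and the other 2 stimulations. The log2 fold change against PBS was 4.04 ± 0.27 with dsHMGB1 (edgeR adjusted p = 1.48e-07), 6.61 ± 0.27 with LPS (adjusted p = 1.9e-09) and 6.70 ± 0.27 with LPS/IFNγ (adjusted p = 1.55e-09). Without PBS replicate 3 these values were 3.70, 6.26 and 6.35. Ccnd2 was lower with dsHMGB1 than with LPS by edgeR (log2 fold change -2.57, adjusted p = 2.79e-05) and than with LPS/IFNγ (-2.66, adjusted p = 9.31e-06). Between LPS/IFNγ and LPS the difference was 0.09 ± 0.27 (adjusted p = 0.793), and it passed only in a fit of these 2 conditions alone (adjusted p = 0.0486).

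Ccnd1, the D-type cyclin best known as a target of mitogens, was highest with LPS/IFNγ and lowest with dsHMGB1 and LPS. Ccnd1 (ENSMUSG00000070348, chromosome 7, 144929931 to 144939925, minus strand) had normalized counts of 639, 704 and 234 in PBS, 478, 639.7 and 565 in frHMGB1, and 1145, 1339.6 and 1121 in LPS/IFNγ. It had 259.8, 346 and 342 in dsHMGB1 and 397, 402 and 363 in LPS. LPS/IFNγ lay above every other library, whereas dsHMGB1 and LPS lay below PBS replicates 1 and 2 and above PBS replicate 3. Against PBS, Ccnd1 was higher with LPS/IFNγ (log2 fold change 1.19 ± 0.31, edgeR adjusted p = 0.0061). With dsHMGB1 the value was -0.74 ± 0.31 (edgeR adjusted p = 0.0576) and with LPS -0.45 ± 0.31 (adjusted p = 0.157), and neither passed. With all libraries kept, the dsHMGB1 value did pass with DESeq2's own test (adjusted p = 0.0352). It also passed by edgeR on genes with 1 CPM in 3 libraries (adjusted p = 0.0409) and on protein-coding genes only (adjusted p = 0.0448). Without PBS replicate 3 the dsHMGB1 and LPS values both passed by edgeR, at -1.09 ± 0.14 (adjusted p = 9.29e-07) and -0.80 ± 0.15 (adjusted p = 2.28e-05). LPS/IFNγ stayed called at 0.83. The contrast of LPS/IFNγ with LPS, which uses no PBS level, was 1.63 (adjusted p = 0.00155), and that of dsHMGB1 with LPS/IFNγ was -1.93 (adjusted p = 0.000398). Dendritic markers were also highest in LPS/IFNγ, as given above. They lay above PBS with dsHMGB1 and LPS too, where Ccnd1 was lowest, and their part was not tested. Exons of Ccnd1 overlap those of LTO1 on the other strand, which held 18608 counts over the 15 libraries against 9476 for Ccnd1. The library kit keeps strand, but the strand setting of the counting is not given in the sources used here.

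Ccnd3 rose less and by about as much in 3 conditions. Ccnd3 (ENSMUSG00000034165, chromosome 17, 47505051 to 47599691, plus strand) had 903, 923 and 455 normalized counts in PBS and 918, 988 and 891 in frHMGB1. The counts were 1567, 1379 and 1556 in dsHMGB1, 1809, 1761 and 1769 in LPS, and 1692, 1691 and 1776 in LPS/IFNγ. No library of these 3 conditions reached down to PBS or frHMGB1. The log2 fold change against PBS was 0.98 with dsHMGB1 (adjusted p = 0.00229), 1.22 with LPS (adjusted p = 0.000396) and 1.17 with LPS/IFNγ (adjusted p = 0.000425), each ± 0.21. With dsHMGB1 the call was lost in a fit of the pair alone (adjusted p = 0.06). Differences among the 3 stimulations were between -0.25 and -0.05, with a standard error of 0.21 each, and did not pass. Its exons overlap those of Bysl on the other strand, which held 10857 counts against 20315 for Ccnd3.

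Set on a scale per exon length (RPKM, reads per kilobase of annotated exon scaled to library size), the make-up of the D-type cyclins turned over. In PBS, Ccnd1 took 50.3% ± 4.39 (SD, n = 3) of their summed RPKM, Ccnd3 41.4% ± 5.07 and Ccnd2 8.32% ± 0.752. The frHMGB1 shares were close to these, at 47.9%, 43.0% and 9.12%. With dsHMGB1, Ccnd2 made up 56.2% ± 3.24, with LPS 86.4% ± 0.73 and with LPS/IFNγ 81.1% ± 0.895. Ccnd2 was thus the smallest of the 3 shares in every PBS and frHMGB1 library and the largest in every library of the other conditions, with no overlap. The 3 cyclins summed to 3.85 ± 1.75 RPKM in PBS and 4.40 ± 0.419 with frHMGB1, and to 9.49 ± 0.666 with dsHMGB1, 35.3 ± 1.35 with LPS and 41.1 ± 0.379 with LPS/IFNγ. Without division by length, Ccnd2 held 11.6% in PBS and 61.3%, 88.8% and 86.2% with dsHMGB1, LPS and LPS/IFNγ, and Ccnd3 in place of Ccnd1 held the largest PBS share, 53.5%.

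**Figure D3:**
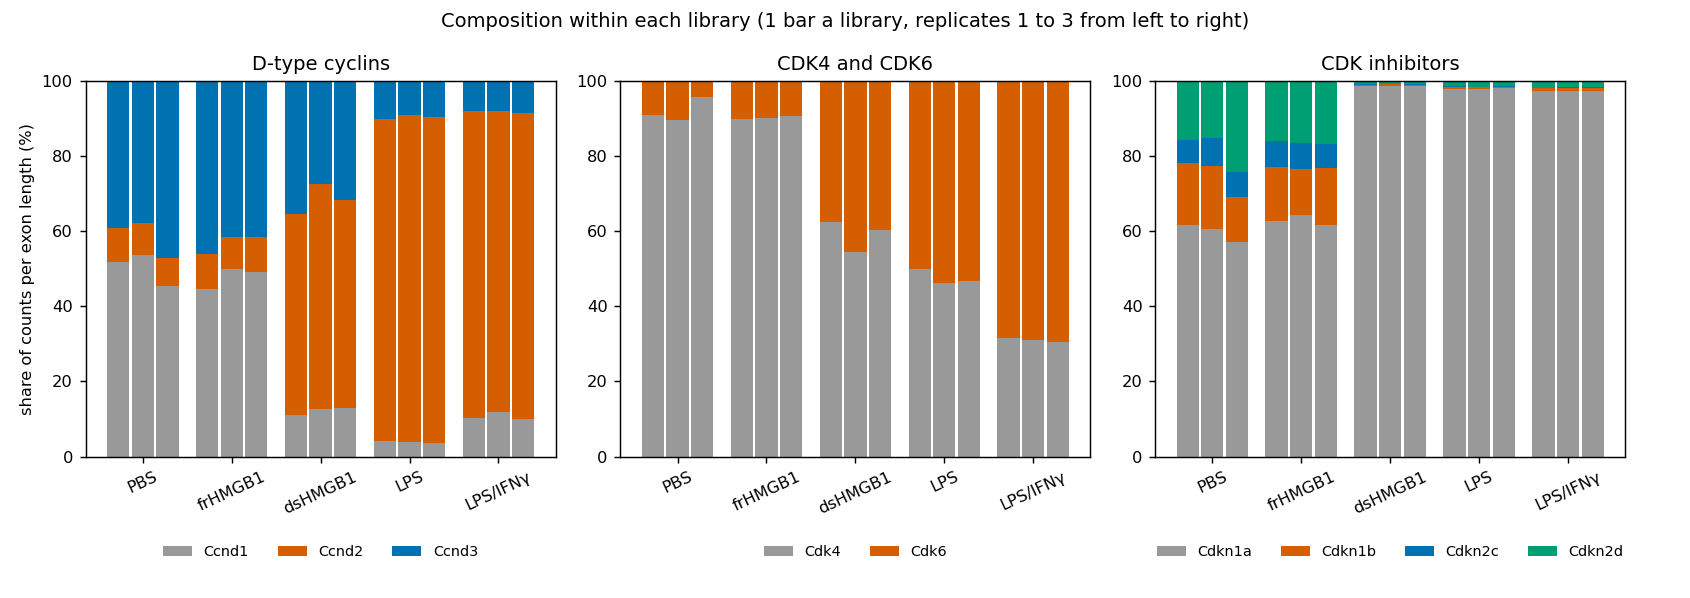
Share (%) of the summed counts per exon length within the D-type cyclins, within CDK4 and CDK6, and within the CDK inhibitors, with 1 bar for each library in replicate order. Ccnd2 goes from 8.32% in PBS to 86.4% in LPS, Cdk4 from 92.2% to 47.6%, and Cdkn1a from 59.8% to 97.9%.

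The kinases that these cyclins activate moved in opposite directions, Cdk6 up and Cdk4 down. Cdk6 (ENSMUSG00000040274, chromosome 5, 3341485 to 3531008, plus strand) had normalized counts of 2105, 2171 and 1168 in PBS and 2368, 2408 and 2194 in frHMGB1. It had 8142, 9342 and 8225 in dsHMGB1, 9631, 10077 and 9929.6 in LPS, and 16904, 17324 and 17225 in LPS/IFNγ. The libraries of these 3 conditions lay above all PBS and frHMGB1 libraries, and those of LPS/IFNγ above all others. The log2 fold change against PBS was 2.24 with dsHMGB1 (adjusted p = 6.92e-07), 2.44 with LPS (adjusted p = 2.27e-07) and 3.24 with LPS/IFNγ (adjusted p = 1.35e-08). Cdk6 was higher with LPS/IFNγ than with LPS (0.80, adjusted p = 0.00544) and lower with dsHMGB1 than with LPS/IFNγ (-1.0, adjusted p = 0.00128), while dsHMGB1 and LPS did not differ beyond their spread (-0.21 ± 0.19, adjusted p = 0.623).

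Cdk4 (ENSMUSG00000006728, chromosome 10, 127063534 to 127067920, plus strand) had 4959.5, 4411 and 6098 normalized counts in PBS and 4883, 5080.1 and 4896 in frHMGB1. It fell to 3162, 2606 and 2899 in dsHMGB1, 2229.9, 2021 and 2022 in LPS, and 1811, 1810.0 and 1748 in LPS/IFNγ. No library of these 3 conditions overlapped with PBS or frHMGB1, and every LPS library lay below every dsHMGB1 library. Against PBS the log2 fold change was -0.84 with dsHMGB1 (adjusted p = 1.93e-05), -1.30 with LPS (adjusted p = 1.09e-07) and -1.53 with LPS/IFNγ (adjusted p = 2.78e-08). Cdk4 was higher with dsHMGB1 than with LPS (0.47, adjusted p = 0.0024) or LPS/IFNγ (0.69, adjusted p = 0.000152). Between LPS/IFNγ and LPS the value was -0.22 ± 0.12 (adjusted p = 0.224), which passed in a fit of those 2 conditions alone (adjusted p = 0.00165). Cdk4 shares exonic sequence with Tspan31 on the other strand, which held 45721 counts against 54295 for Cdk4. Per exon length, Cdk4 took 92.2% ± 3.16 of the CDK4 and CDK6 total in PBS, 90.2% ± 0.355 with frHMGB1, 59.1% ± 4.12 with dsHMGB1, 47.6% ± 1.97 with LPS and 31.0% ± 0.586 with LPS/IFNγ. The summed RPKM of the pair moved far less than its make-up, from 29.99 ± 2.76 in PBS to 26.2 ± 0.764 with dsHMGB1, 22.7 ± 0.471 with LPS and 30.6 ± 0.441 with LPS/IFNγ. Without division by length, Cdk4 held 73.7% in PBS and 25.3%, 17.5% and 9.45% with dsHMGB1, LPS and LPS/IFNγ.

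The 250 bases before the annotated start of both kinase genes, from RefSeq on GRCm38.p6, are shown because the genes moved in opposite directions in the same libraries. The gene spans given above came from another annotation, GENCODE. The Cdk4 window ends at the first base of its span, whereas the Cdk6 window lies inside its span. Windows were found for 7 of the 10 genes (Ccnd3, Cdk4, Cdk6, Cdkn1a, Cdkn1b, Cdkn2c and Cdkn2d) and 10 annotated starts. Capitals mark matches on either strand to any of 8 motifs: the E-box CACGTG, to which Myc with Max can bind, the GC box GGGCGG, the TATA box TATAAA, the AP-1 site TGANTCA, the interferon-γ element TTCNNNGAA, the E2F site TTTNNCGC, and the NF-κB site and the p53 full site, whose consensus has positions open to more than 1 base. Positions count back from the annotated start, with -1 the last base of each window.
Cdk4, chr10:127063285-127063534, plus strand: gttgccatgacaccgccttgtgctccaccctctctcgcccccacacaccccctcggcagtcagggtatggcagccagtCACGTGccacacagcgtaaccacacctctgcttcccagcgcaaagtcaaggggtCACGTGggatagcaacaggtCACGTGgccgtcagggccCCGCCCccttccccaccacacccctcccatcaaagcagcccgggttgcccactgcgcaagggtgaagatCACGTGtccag
Cdk6, chr5:3343643-3343892, plus strand: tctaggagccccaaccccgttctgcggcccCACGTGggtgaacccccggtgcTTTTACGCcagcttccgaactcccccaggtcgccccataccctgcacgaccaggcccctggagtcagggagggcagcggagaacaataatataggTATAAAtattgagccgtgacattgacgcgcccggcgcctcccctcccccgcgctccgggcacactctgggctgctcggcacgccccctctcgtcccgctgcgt
The capitals of Cdk4 are 4 E-boxes, beginning at positions -172, -118, -98 and -11, and a GC box at -80. An E-box was found in 6.02% of all 32851 windows of this length and 4 or more in 7 of them. Cdk6 holds 1 E-box at -220, an E2F match at -198 (4.28% of all windows) and a TATA box at -103 (12.4% of all windows). The AP-1, interferon-γ and NF-κB motifs, present in 6.75%, 7.02% and 3.90% of all windows, matched in none of the 10. A match is a description of these letters and not a measured binding site.

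Cdkn1a, whose product p21 blocks cyclin-kinase complexes and is the best known target of p53, showed the largest expression change among the inhibitors. Cdkn1a (ENSMUSG00000023067, chromosome 17, 29090976 to 29100727, plus strand) had 5785, 5645 and 6669 normalized counts in PBS and 6675, 6929 and 6532 in frHMGB1. It had 251800, 223120 and 225210 in dsHMGB1, 255770, 256140 and 271480 in LPS, and 225710, 223090 and 234600 in LPS/IFNγ. The lowest library of the last 3 conditions was far above the highest of PBS and frHMGB1, and dsHMGB1 overlapped with LPS/IFNγ. The rise was 38.7-fold with dsHMGB1 (log2 fold change 5.28 ± 0.08, adjusted p = 1.29e-13), 43.3-fold with LPS (5.44 ± 0.08, adjusted p = 6.72e-14) and 37.8-fold with LPS/IFNγ (5.24 ± 0.08, adjusted p = 7.36e-14). Among these 3 no pair passed by edgeR, with log2 differences of -0.16 for dsHMGB1 with LPS (adjusted p = 0.356), 0.03 for dsHMGB1 with LPS/IFNγ (adjusted p = 0.68) and -0.20 for LPS/IFNγ with LPS (adjusted p = 0.16). The last passed with DESeq2 (adjusted p = 0.0439) and in a fit of that pair alone (adjusted p = 1.66e-05). In RPKM, Cdkn1a stood at 29.7 ± 1.44 in PBS, 33.5 ± 1.15 with frHMGB1, 1144 ± 76.4 with dsHMGB1, 1234 ± 37.5 with LPS and 1104 ± 28.9 with LPS/IFNγ, above each of the other 9 genes on average in every condition. In PBS it overlapped with Cdk4 (27.7 ± 3.46 RPKM), the next in order. With frHMGB1 the log2 fold change was 0.15 ± 0.08 (adjusted p = 0.283), and without PBS replicate 3 it passed at 0.23 ± 0.06 (adjusted p = 0.0124), when 17.5% of all genes tested were called.

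Cdkn1a has 2 annotated starts in the RefSeq table, and the 250 bases before each are shown because this gene had the largest rise in RPKM.
Cdkn1a, upstream start, chr17:29090729-29090978, plus strand: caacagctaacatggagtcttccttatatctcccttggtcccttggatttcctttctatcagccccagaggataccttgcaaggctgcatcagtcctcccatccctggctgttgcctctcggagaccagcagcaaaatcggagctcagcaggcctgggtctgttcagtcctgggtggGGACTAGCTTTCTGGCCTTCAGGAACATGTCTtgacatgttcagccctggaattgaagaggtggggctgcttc
Cdkn1a, downstream start, chr17:29093519-29093768, plus strand: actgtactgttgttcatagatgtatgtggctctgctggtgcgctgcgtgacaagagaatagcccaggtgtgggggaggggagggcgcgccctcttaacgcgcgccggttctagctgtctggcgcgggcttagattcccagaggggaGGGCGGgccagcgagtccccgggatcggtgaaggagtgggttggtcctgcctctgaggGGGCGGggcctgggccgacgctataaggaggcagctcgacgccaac
The capitals of the upstream window are a p53 full site from -73 to -42, that is a pair of half-sites up to 13 bases apart, which was found in 21 of the 32851 windows (0.06%). Those of the downstream window are GC boxes at -104 and -46, a motif found in 32.7% of all windows.

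Cdkn1b, the p27 inhibitor that rises as cells leave the cycle, was the only one of the 10 genes called lower with dsHMGB1 than in each other condition. Its normalized counts (ENSMUSG00000003031, chromosome 6, 134920401 to 134925513, plus strand) were 1971, 1995 and 1775 in PBS, 1962, 1699.5 and 2045 in frHMGB1, and 1233, 1454 and 1161 in dsHMGB1. They were 1983, 2192 and 1767 in LPS and 2393, 2423 and 2468 in LPS/IFNγ. The dsHMGB1 libraries lay below all others and those of LPS/IFNγ above all others. Cdkn1b was lower with dsHMGB1 than in PBS (log2 fold change -0.58, adjusted p = 0.00144), with frHMGB1 (-0.57, adjusted p = 0.00124), with LPS (-0.63, adjusted p = 0.00356) and with LPS/IFNγ (-0.92, adjusted p = 7.41e-05), each with a standard error of 0.12. With LPS it was at 0.05 ± 0.12 against PBS (adjusted p = 0.92). With LPS/IFNγ it was higher (0.34 ± 0.12, adjusted p = 0.04), a call that was lost without PBS replicate 3 (adjusted p = 0.0605) and without LPS/IFNγ replicate 1, 2 or 3 (adjusted p = 0.0803 to 0.101).

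The INK4 inhibitors parted, Cdkn2c falling and Cdkn2d rising with LPS. Cdkn2c (ENSMUSG00000028551, chromosome 4, 109660876 to 109667189, minus strand) had 434, 513 and 599 normalized counts in PBS and 554, 556 and 521 in frHMGB1. It had 169.9, 147 and 186 in dsHMGB1, 123, 129 and 172 in LPS, and 93.3, 121 and 101 in LPS/IFNγ. These 3 conditions lay below all PBS and frHMGB1 libraries and dsHMGB1 overlapped with LPS, while every LPS/IFNγ library lay just below every LPS library. Against PBS the log2 fold change was -1.62 ± 0.17 with dsHMGB1 (adjusted p = 2.2e-06), -1.87 ± 0.18 with LPS (adjusted p = 3.1e-07) and -2.29 ± 0.18 with LPS/IFNγ (adjusted p = 4.71e-08). Cdkn2c was lower with LPS/IFNγ than with dsHMGB1 by 0.67 on the log2 scale (adjusted p = 0.00529), while LPS did not differ from either beyond the spread (adjusted p = 0.114 and 0.212). The window before the first of its 2 annotated starts, shown as that of the inhibitor that fell, holds GC boxes (capitals) at -95, -51 and -40. This window lies inside the span given for the gene.
Cdkn2c, first start, chr4:109666757-109667006, minus strand: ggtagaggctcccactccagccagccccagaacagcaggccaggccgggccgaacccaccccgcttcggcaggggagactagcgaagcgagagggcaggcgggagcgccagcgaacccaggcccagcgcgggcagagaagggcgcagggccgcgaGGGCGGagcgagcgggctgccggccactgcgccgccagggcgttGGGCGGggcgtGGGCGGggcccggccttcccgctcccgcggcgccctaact
The window before its other start was the only one of the 10 with no match to any motif.

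Cdkn2d (ENSMUSG00000096472, chromosome 9, 21288410 to 21291407, minus strand), the shortest of the genes by exon length at 1574 bases, had 656, 631 and 1251 normalized counts in PBS and 759, 794 and 782 in frHMGB1. It had 964, 837 and 841 in dsHMGB1, 1653, 1696 and 1704 in LPS, and 1833, 1719.5 and 1805 in LPS/IFNγ. LPS and LPS/IFNγ lay above all other libraries, and PBS replicate 3 lay above all dsHMGB1 libraries while PBS replicates 1 and 2 lay below them. The log2 fold change against PBS was 1.00 ± 0.22 with LPS (adjusted p = 0.000533) and 1.08 ± 0.22 with LPS/IFNγ (adjusted p = 0.000198), and without PBS replicate 3 it was 1.38 and 1.46. With dsHMGB1 it was 0.06 ± 0.22 (adjusted p = 0.777), and 0.45 ± 0.08 without PBS replicate 3 (adjusted p = 0.000119). With frHMGB1 it was -0.12 with all libraries (adjusted p = 0.866) and 0.28 without PBS replicate 3 (adjusted p = 0.0212), so that the sign rested on that library. Cdkn2d was lower with dsHMGB1 than with LPS (-0.94, adjusted p = 0.0029) and LPS/IFNγ (-1.02, adjusted p = 0.000825).

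Within the inhibitors, Cdkn1a took 59.8% ± 2.38 of the summed RPKM in PBS and 62.9% ± 1.28 with frHMGB1, and 98.6% ± 0.0529, 97.9% ± 0.105 and 97.4% ± 0.0451 with dsHMGB1, LPS and LPS/IFNγ. Cdkn2d fell from 18.4% in PBS to a share of 0.84% with dsHMGB1, although with all libraries its level did not differ there beyond the spread. Its PBS share was 15.8%, 15.3% and 24.2% in replicates 1 to 3. Without PBS replicate 3 its level was called higher with dsHMGB1, as given above. Without division by length the Cdkn1a share was 64.8% in PBS and 99.0%, 98.6% and 98.1% in the same 3 conditions.

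Myc rose with dsHMGB1 and LPS and not with LPS/IFNγ. Myc (ENSMUSG00000022346, chromosome 15, 61985391 to 61990374, plus strand) had normalized counts of 404, 406 and 322 in PBS, 289.7, 319.9 and 263 in frHMGB1, and 563, 550.2 and 622 in dsHMGB1. It had 659, 632 and 679 in LPS and 368, 397 and 417 in LPS/IFNγ. The LPS libraries lay above all others, dsHMGB1 came next, and LPS/IFNγ overlapped with PBS. The log2 fold change against PBS was 0.61 ± 0.12 with dsHMGB1 (adjusted p = 0.0022), a call lost in a fit of that pair alone (adjusted p = 0.0515), and 0.79 ± 0.12 with LPS (adjusted p = 0.000343). With LPS/IFNγ it was 0.05 ± 0.12 (adjusted p = 0.866). The difference of LPS/IFNγ from LPS itself passed, at -0.74 (adjusted p = 0.00156), as did that of dsHMGB1 from LPS/IFNγ (0.55, adjusted p = 0.00455), while dsHMGB1 and LPS did not differ beyond their spread (-0.18 ± 0.12, adjusted p = 0.536). With frHMGB1 the value was -0.38 ± 0.12, which missed the threshold by edgeR (adjusted p = 0.156), passed by DESeq2 (adjusted p = 0.0202), and passed by edgeR without PBS replicate 3 (-0.47, adjusted p = 0.00351).

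Set against each other, dsHMGB1 differed most from LPS and from LPS/IFNγ in Ccnd2, and LPS/IFNγ differed most from LPS in Ccnd1. Of the 10 genes, dsHMGB1 and LPS differed in 4 (Cdk4 higher with dsHMGB1, Ccnd2, Cdkn1b and Cdkn2d lower), where 26.4% of all genes tested were called (15.8% higher, 10.6% lower). Between dsHMGB1 and LPS/IFNγ 8 were called against a background of 33.2% (16.5% higher, 16.7% lower), with Cdk4, Cdkn2c and Myc higher and Ccnd1, Ccnd2, Cdk6, Cdkn1b and Cdkn2d lower with dsHMGB1. Between LPS/IFNγ and LPS 3 were called against 25.7% (16.3% higher, 9.36% lower), with Ccnd1 and Cdk6 higher and Myc lower with LPS/IFNγ. That last count was 5 with DESeq2, where 31.0% of all genes tested were called. It was 7 in a fit of those 2 conditions alone, which adds Ccnd2, Cdk4, Cdkn1a and Cdkn1b. In that fit 61.1% of all genes tested were called. Ccnd3 and Cdkn1a were in none of the 3 sets of calls.

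**Figure D4:**
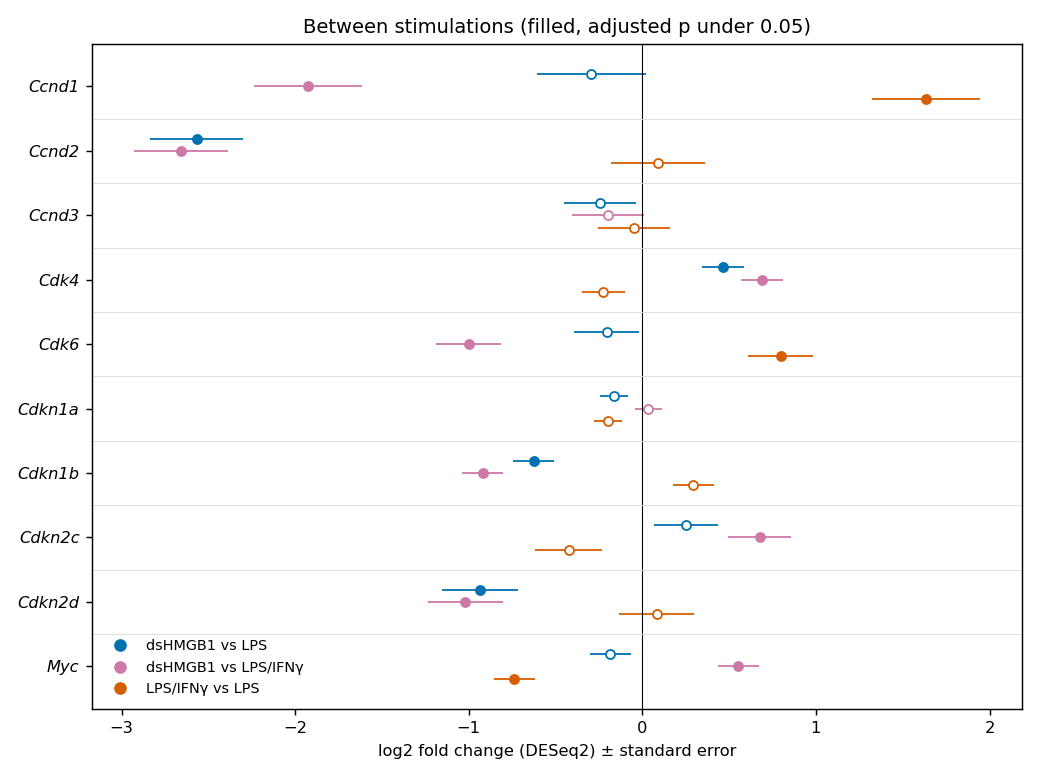
Log2 fold change (points) with its standard error (bars) for the 3 comparisons between dsHMGB1, LPS and LPS/IFNγ, filled where the edgeR adjusted p was under 0.05. Ccnd2 lies at -2.57 and -2.66 in both comparisons of dsHMGB1, Ccnd1 at 1.63 and Myc at -0.74 for LPS/IFNγ against LPS.

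Against frHMGB1, whose libraries all lie close together, 9 of the 10 genes were called for dsHMGB1 (background 50.8%), 8 for LPS (53.6%) and 10 for LPS/IFNγ (64.2%). Cdkn2d with dsHMGB1 (0.18, adjusted p = 0.517), and Ccnd1 (-0.53, adjusted p = 0.117) and Cdkn1b (0.06, adjusted p = 0.908) with LPS, did not pass. Ccnd1 with LPS did pass by edgeR in a fit of LPS and frHMGB1 alone (-0.58, adjusted p = 0.000258). In that fit 78.9% of all genes tested were called. Without 1 library of each pair at a time, 7 to 8 genes were called for dsHMGB1, 8 for LPS and 8 to 9 for LPS/IFNγ. The background was then 43.0% to 44.3%, 47.1% to 47.7% and 57.6% to 57.9%. Ccnd1 with dsHMGB1 (-0.83, adjusted p = 0.0359) lost its call without any of the 3 dsHMGB1 libraries or without frHMGB1 replicate 2 or 3 (adjusted p = 0.063 to 0.12). Ccnd3 with dsHMGB1 (0.69, adjusted p = 0.0194) lost it without dsHMGB1 or frHMGB1 replicate 1 or 3 (adjusted p = 0.0538 to 0.0634). Cdkn1b with LPS/IFNγ (0.35, adjusted p = 0.0404) lost it without any LPS/IFNγ library or frHMGB1 replicate 1 or 2 (adjusted p = 0.0725 to 0.163), and Myc with LPS/IFNγ (0.44, adjusted p = 0.0202) without LPS/IFNγ replicate 2 or 3 or frHMGB1 replicate 1 or 3 (adjusted p = 0.0564 to 0.0899).

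Across the 15 libraries, the protein-coding genes with the profile nearest to Ccnd1 were Rapgef6, Zfp318 and Nfatc1, at a root mean square difference of 0.17, 0.18 and 0.21 in centred log2 normalized counts. The pool held 10092 genes whose mean normalized count was 100 or more. Rapgef6 averaged 1969 normalized counts in PBS, 1199 with dsHMGB1, 1498 with LPS and 5077 with LPS/IFNγ. For Cdkn1a they were Ripk2 (0.23), Ehd1 (0.26) and BC147527 (0.26), of which Ripk2, a kinase of bacterial sensing, went from 749 in PBS to 21026 with dsHMGB1, 35783 with LPS and 29551 with LPS/IFNγ. For Myc they were Nfix (0.14), Rnpepl1 (0.18) and Hmbox1 (0.19), with Nfix at 491 in PBS, 757 with dsHMGB1, 813 with LPS and 571 with LPS/IFNγ. PBS replicate 3 is among these libraries, and the likeness is a description.

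Other genes of the pathway were followed in 6 lists, of which 136 genes were tested. Against PBS, 91 were called with dsHMGB1, 108 with LPS, 112 with LPS/IFNγ and 3 with frHMGB1, where 47.4%, 62.9%, 60.3% and 7.0% of all genes tested were called. The shares called higher and lower over all genes, given above for the 10 genes, are the background of the counts below. Among 32 other G1/S genes, 8 rose and 14 fell with dsHMGB1, 9 and 15 with LPS, and 10 and 12 with LPS/IFNγ, with a median log2 fold change of -0.31, -0.28 and 0.07. The retinoblastoma relative Rbl1 (p107) rose from a mean of 905 normalized counts in PBS to 5766 with dsHMGB1, 8265 with LPS and 6149 with LPS/IFNγ, and Ccne1, the cyclin that follows the D-type cyclins, rose 8.85-fold with LPS. E2f8, a repressor of the E2F family, rose 6.48-fold with dsHMGB1 and 12.6-fold with LPS/IFNγ. It averaged 217 normalized counts in PBS, 1415 with dsHMGB1, 1798.5 with LPS and 2753 with LPS/IFNγ. The activator E2f2 fell from 451 to 20.3, 8.65 and 30.7 in the same order, and Fbxo31, part of a ubiquitin ligase, fell 12.4-, 29.8- and 36.6-fold. The edgeR adjusted p of each fold change given, and of the changes of Rbl1 and E2f2, was at most 0.000213.

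In the Myc network, 18 of 20 genes were tested, and 6 rose and 5 fell with dsHMGB1 and 8 rose and 5 fell with LPS and with LPS/IFNγ (median 0.22, 0.51 and 0.28). Mycl, a relative of Myc, went from 9.20 ± 4.596 in PBS (normalized counts, SD, n = 3) to 779 ± 30.8 with dsHMGB1, 1820.3 ± 62.5 with LPS and 456 ± 24.3 with LPS/IFNγ. The kinase Pim1 rose 12.5-, 25.6- and 22.3-fold. The antagonists Mxd4 and Mnt, which compete for Max, fell 7.0-, 16.9- and 18.7-fold and 4.04-, 5.51- and 4.63-fold. Mxi1 of the same class also fell (3.35-, 4.01- and 3.50-fold), whereas Mxd1, another member of it, rose 6.63-, 10- and 7.53-fold, both genes being chosen after their values were seen. The edgeR adjusted p of these changes was at most 5.22e-05. Of 28 target genes of Myc in ribosome biogenesis and biosynthesis, 11 rose and 3 fell with dsHMGB1, 10 and 9 with LPS, and 11 and 12 with LPS/IFNγ, with medians of -0.11, 0.14 and -0.08. Rrs1 rose 4.14-, 5.97- and 4.28-fold and Wdr43 3.29- and 4.27-fold with dsHMGB1 and LPS, both being ribosome assembly factors, and the cap-binding Eif4e rose 3.41-fold with LPS/IFNγ (edgeR adjusted p at most 4.16e-08). Eif4e averaged 1394 normalized counts in PBS, 3331 with dsHMGB1, 5413 with LPS and 4754 with LPS/IFNγ. Wdr12 fell 1.71- and 2.56-fold with dsHMGB1 and LPS, and with dsHMGB1 only with all conditions in the fit (adjusted p = 0.00452, against 0.0837 for the pair alone). The methyltransferase Prmt5 fell 1.57-fold with dsHMGB1, Nop16 2.51- and 3.54-fold with LPS and LPS/IFNγ, and the spermidine synthase Srm 3.78-fold with LPS/IFNγ (edgeR adjusted p at most 0.000927 for these 3). Without PBS replicate 3 the fall of Nop16 with LPS was 1.69-fold. Prmt5 averaged 1355 normalized counts in PBS, 862 with dsHMGB1, 545 with LPS and 817 with LPS/IFNγ. The list moved in both directions in all 3 comparisons.

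Of 21 p53 targets, a list without Cdkn1a, 8 rose and 7 fell with dsHMGB1 and 10 rose and 9 fell with LPS and with LPS/IFNγ, with medians of -0.13, 0.37 and 0.05. The death receptor Fas rose 11.8-, 12.2- and 17.8-fold, and the stress protein Sesn2 4.42-, 8.20- and 8.62-fold. Gadd45a fell 9.48-, 7.23- and 41.2-fold and Sesn1 7.66-, 41.7- and 43.1-fold. All 12 changes passed by edgeR with an adjusted p of at most 2.04e-07. 

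Of 20 genes used as a readout of proliferation, 1 rose and 14 fell with dsHMGB1, 5 and 14 with LPS, and 4 and 16 with LPS/IFNγ, with medians of -0.65, -0.91 and -1.09. The gene that rose with dsHMGB1 was Mki67, which encodes the Ki-67 protein of cycling cells. It had 934, 1099.8 and 585 normalized counts in PBS against 6504, 9627 and 8834 with dsHMGB1, and it rose 9.51-fold with dsHMGB1, 14.0-fold with LPS and 14.2-fold with LPS/IFNγ. The mitotic kinase Aurkb had 205, 229 and 184 in PBS and 59.6, 60.9 and 61.4 with dsHMGB1, and it fell 3.41-, 5.86- and 8.58-fold. Mki67 and Aurkb thus moved in opposite directions in all 3 conditions. The replication helicase Mcm7 fell 3.68- and 3.58-fold with dsHMGB1 and LPS, and the mitotic survivin gene Birc5 4.34-fold with LPS/IFNγ, which was 2.76-fold without PBS replicate 3. Thymidylate synthase (Tyms) rose 3.35-fold with LPS and the replication clamp Pcna 2.33-fold with LPS/IFNγ. Each of these changes had an edgeR adjusted p of at most 0.000222. Pcna averaged 10266 normalized counts in PBS, 9592 with dsHMGB1, 23752 with LPS and 23863 with LPS/IFNγ. The summed progenitor and mast cell markers were lower with dsHMGB1, LPS and LPS/IFNγ than in every PBS library, as given above, and their part in these counts was not tested.

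Among genes of the M-CSF receptor and mitogen response, 17 of 18 were tested and Jun was not analysed here. With dsHMGB1 and with LPS 10 rose and 4 fell, and with LPS/IFNγ 10 rose and 5 fell, with medians of 0.68, 0.88 and 0.71. Csf1, which encodes M-CSF, rose 25.1-, 43.5- and 52.2-fold, from 697 ± 126 normalized counts in PBS to 17564 ± 1134, 30450 ± 1493 and 36537 ± 735 (SD, n = 3). Csf2, which encodes GM-CSF, had 0 counts in all PBS libraries, and against a floor of 3 counts over the group it was at least 33.6-fold higher with dsHMGB1, 861-fold with LPS and 41.8-fold with LPS/IFNγ. The early response genes parted. Egr2 and Fos fell, Egr2 by 2.70-, 3.66- and 8.77-fold and Fos by 2.58- and 5.15-fold with LPS and LPS/IFNγ (edgeR adjusted p at most 0.000199). Junb rose 2.69-, 6.04- and 3.32-fold, Ier3 7.85-, 24.7- and 7.34-fold and Egr1 1.44-, 1.83- and 1.64-fold with dsHMGB1, LPS and LPS/IFNγ (edgeR adjusted p at most 0.0171), 3 genes chosen after their values were seen. The Egr1 call with dsHMGB1 was lost in the pair alone (adjusted p = 0.101) and without dsHMGB1 replicate 2 (adjusted p = 0.0701). Ets1 had -1.06 ± 0.38 with dsHMGB1 (adjusted p = 0.0296), a call lost in 7 of the alternatives. With frHMGB1 the 3 genes called in all lists were Eif4e (1.24-fold, adjusted p = 0.0204), Tyms (1.43-fold, adjusted p = 0.0444) and Csf2ra, a GM-CSF receptor chain (1.73-fold, adjusted p = 0.0193), and each lost its call without any 1 of the frHMGB1 libraries (adjusted p = 0.0547 to 0.125). Without PBS replicate 3, 20 of the 136 list genes were called with frHMGB1, where 17.5% of all genes tested were called.

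**Figure D5:**
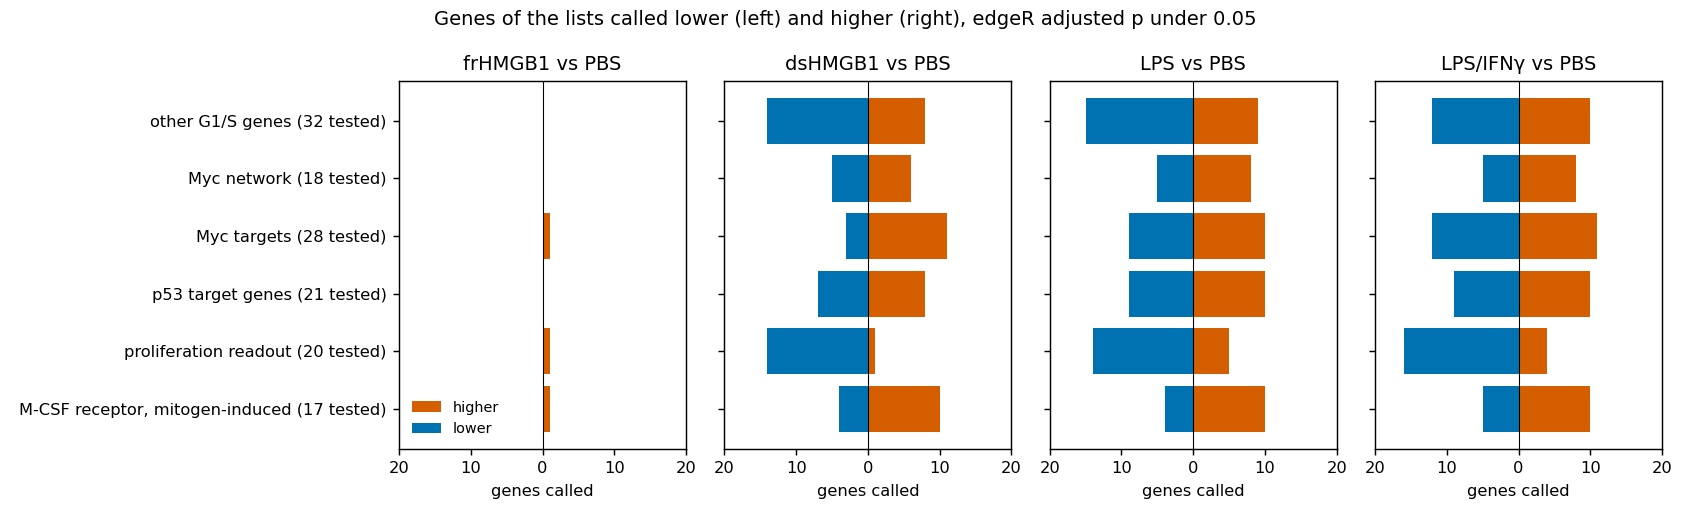
Number of genes of each list called lower (left, blue) and higher (right, orange) than PBS by edgeR at an adjusted p under 0.05, in 1 panel for each stimulation. The proliferation list leans to the left, with 14, 14 and 16 genes lower with dsHMGB1, LPS and LPS/IFNγ, and the frHMGB1 panel holds 3 genes in all.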

How the data were processed

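The data were RNA sequencing libraries of BMDMs, 3 for each of 5 conditions, grouped by the treatment labels. According to the methods of the study and its processing notes, the authors used stranded mRNA libraries, paired-end reads, CASAVA for base calling, STAR for alignment to GRCm38 and DESeq2 for comparisons. The deposited table holds raw counts per gene, whole numbers with no normalization or filter. Neither the counting program nor its annotation and strand setting is given in the sources used here. All columns had a sample. Total counts ranged from 40934540 to 80925478, and no pair of replicates was near enough to be 1 library (chi-square per degree of freedom 4.31 to 763).

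Genes were filtered with filterByExpr (minimum count 10, total 15), which kept 16919 genes. Tests were quasi-likelihood tests in edgeR 4.0.16, using TMM factors, all 15 libraries in 1 fit, no covariates, and Benjamini-Hochberg adjustment over these genes. Normalized counts and unshrunken log2 fold changes with standard errors came from DESeq2 1.42.0 in R 4.3.3. The log2 fold changes of both tools differed by at most 0.09 for the genes followed. RPKM and shares used the union of annotated exons in GENCODE M21, which does not show the transcripts in use. The fits were also run on simulated counts with known changes in a small part of the genes, in the dsHMGB1 libraries only. That setting is simpler than these data, where calls were common, and no result here rests on it.

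Members and gene lists were chosen with earlier results of these data known. All 10 members were described in each comparison. From each list and comparison with PBS, the 2 largest called rises and falls were named where the mean normalized count was 100 or more, and the 3 protein-coding genes with the nearest profile for Ccnd1, Cdkn1a and Myc, by root mean square difference of log2(normalized count + 1). Promoter windows came from a RefSeq table on GRCm38.p6. Alternatives tried were RLE factors, DESeq2's Wald test, no filter on low counts, 1 CPM in 3 libraries, protein-coding genes only, each pair of conditions alone, a replicate block, each library left out in turn, and shares without division by length.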

Additional observations from a re-analysis of the deposited data

How the results depend on the processing

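Over 10 comparisons and all alternatives, 1300 values of the 10 genes were recomputed, and 1222 kept their direction and side of the threshold, 25 lost the call, 18 gained one and 35 changed sign. Of 1157 values of the list genes named above, 1124 kept both and 33 lost the call. The cause of these changes was not tested. For frHMGB1 against PBS, DESeq2 called 1 of the 10 genes (10.4% of all genes tested). Leaving out 1 library gave 0 to 3 of the 10, and 4.81% to 17.5% of all genes tested. The highest of both came without PBS replicate 3. For LPS/IFNγ against LPS, DESeq2 called 5 (31.0% of all genes tested) and a fit of the pair alone 7 (61.1% of all genes tested). Of the 136 list genes with frHMGB1, DESeq2 called 7, no filter 1, protein-coding genes only 0 and the pair alone 0. Over all genes tested these settings called 10.4%, 3.87%, 0.537% and 1.27%. Leaving out 1 library gave 0 to 20 list genes, with the shares over all genes given above. With dsHMGB1 the pair alone called 60 list genes against 91, where the share over all genes tested was 29.9% against 47.4%.

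The values that changed sign were small log2 fold changes, none called with all libraries. With 1 library left out, those of frHMGB1 against PBS ran from -0.265 (without PBS replicate 3) to 0.364 for Ccnd1, -0.072 to 0.493 for Ccnd2, -0.115 to 0.075 for Cdk4, -0.067 to 0.080 for Cdkn1b and -0.234 to 0.270 for Cdkn2d. Cdkn2d with dsHMGB1 ran from -0.081 to 0.419, Myc with LPS/IFNγ from -0.111 to 0.103, and Cdkn1b with LPS from -0.060 to 0.106 against PBS and from -0.093 to 0.086 against frHMGB1. Cdkn1b with frHMGB1 against PBS was -0.010 with DESeq2, -0.009 with RLE factors, -0.062 with no filter, -0.040 at 1 CPM, -0.074 with protein-coding genes only and -0.030 in the pair alone. Cdkn1b with LPS against PBS was 0.049 with DESeq2, 0.050 with RLE factors, 0.077 with no filter and 0.11 in the pair alone, and against frHMGB1 it was 0.059 with DESeq2 and with RLE factors, 0.14 with no filter, 0.019 with protein-coding genes only and 0.014 in the pair alone. Ccnd3 for LPS/IFNγ against LPS was 0.003 at 1 CPM and 0.030 with protein-coding genes only.

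Samples with the same replicate number did not deviate together (correlations of -0.39 to 0.38 between conditions), so the numbers were not taken as pairs. With a replicate block 0, 8, 8 and 9 of the 10 genes were called against PBS for frHMGB1, dsHMGB1, LPS and LPS/IFNγ. Of the 16919 genes tested, that fit called 1015, 7611, 10336 and 9896, against 1185, 8028, 10636 and 10198 without the block. For dsHMGB1 against LPS, dsHMGB1 against LPS/IFNγ and LPS/IFNγ against LPS, 4, 8 and 3 of the 10 were called. Over all genes tested these were 4159, 5371 and 4048, against 4461, 5621 and 4348 without the block. The block thus left the counts of the 10 genes the same and lowered those over all genes.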
